A study of Homo sapiens with 24 samples.

Results

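The data set out what a proteasome inhibitor on its own did to gene expression in HepG2 cells, a human hepatoma line. The 4 libraries of cells given bortezomib at 50 nM for 10 h were set against the 4 libraries of cells that received the DMSO vehicle for the same 10 h, 8 of the 24 libraries in the study. Neither group received nelfinavir or ISRIB, the compounds of the remaining groups, and no genetic change was made to the cells. The labels describe the libraries of a group as biological replicates without naming the cultures, so the p-values measure the spread between these samples. All 18915 genes in the count table were considered, and 12685 of them carried enough counts to be tested. Chaperones, proteasome subunits and the unfolded protein response were not taken as groups, apart from a list of ATF4 target genes of amino acid handling, and the text follows the other pathways.

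The proteasome degrades proteins tagged with ubiquitin, and bortezomib blocks its chymotrypsin-like site. Cells with a blocked proteasome accumulate tagged proteins, lose free ubiquitin and keep short-lived regulators that are normally destroyed, among them NRF2, p53, cyclins, β-catenin and inhibitors of signalling. Autophagy and lysosomes form the other large route of protein disposal. HepG2 cells are known to carry an activating deletion in CTNNB1, the β-catenin gene, and they still make many liver plasma proteins.

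Libraries held between 5380478 and 6943164 counts. All 9 hepatocyte markers examined had counts in both groups, and their summed level was 13070 to 14570 scaled CPM (CPM with the library total adjusted by edgeR's TMM factor, and CPM a count scaled to a fixed library total) in DMSO and 10210 to 10830 in bortezomib. Of the 9 markers of other cell types in the table, COL1A1 and KRT7 were at 0 in both groups, COL3A1 was at 0 in bortezomib, and the sum ran from 611.1 to 682.3 scaled CPM in DMSO and from 456.7 to 528.0 in bortezomib. Most of that sum in DMSO was LYZ, which fell (log2 fold change −1.79), while the smooth muscle actin gene ACTA2 rose (1.47) and EPCAM, most of the sum in bortezomib, rose (0.34, not called without bortezomib replicate 1). The part of these markers in the results was not tested. In bulk RNA a smaller number of cells of a type and less RNA per cell cannot be told apart.

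In the quasi-likelihood test of edgeR, with p-values adjusted by the Benjamini-Hochberg method, 27.6% of the tested genes were called higher in bortezomib and 25.8% lower at an adjusted p under 0.05. A change of more than 2-fold was reached by 10.3% on the higher side and by 12.2% on the lower side. With changes this widespread, the count of called members of a pathway means little without these shares beside it. The scaling also matters. Mitochondrially encoded genes took 21.5% ± 1.32 (mean ± SD, n = 4) of all counts in DMSO and 33.8% ± 1.20 in bortezomib. How much of the difference between scales comes from this share was not tested. If library totals alone set the scale, the median log2 fold change of all genes moves from 0.00 to −0.495, and 1490 genes are called higher and 6266 lower in place of 3498 and 3275, so that the share of calls on the higher side goes from 51.6% to 19.2%. Small rises thus rest on the TMM scale. Of the genes named here that were called higher, 9 with log2 fold changes up to 1.18 (CYR61) lost their call on library totals alone, and others turned sign.

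**Figure D1:**
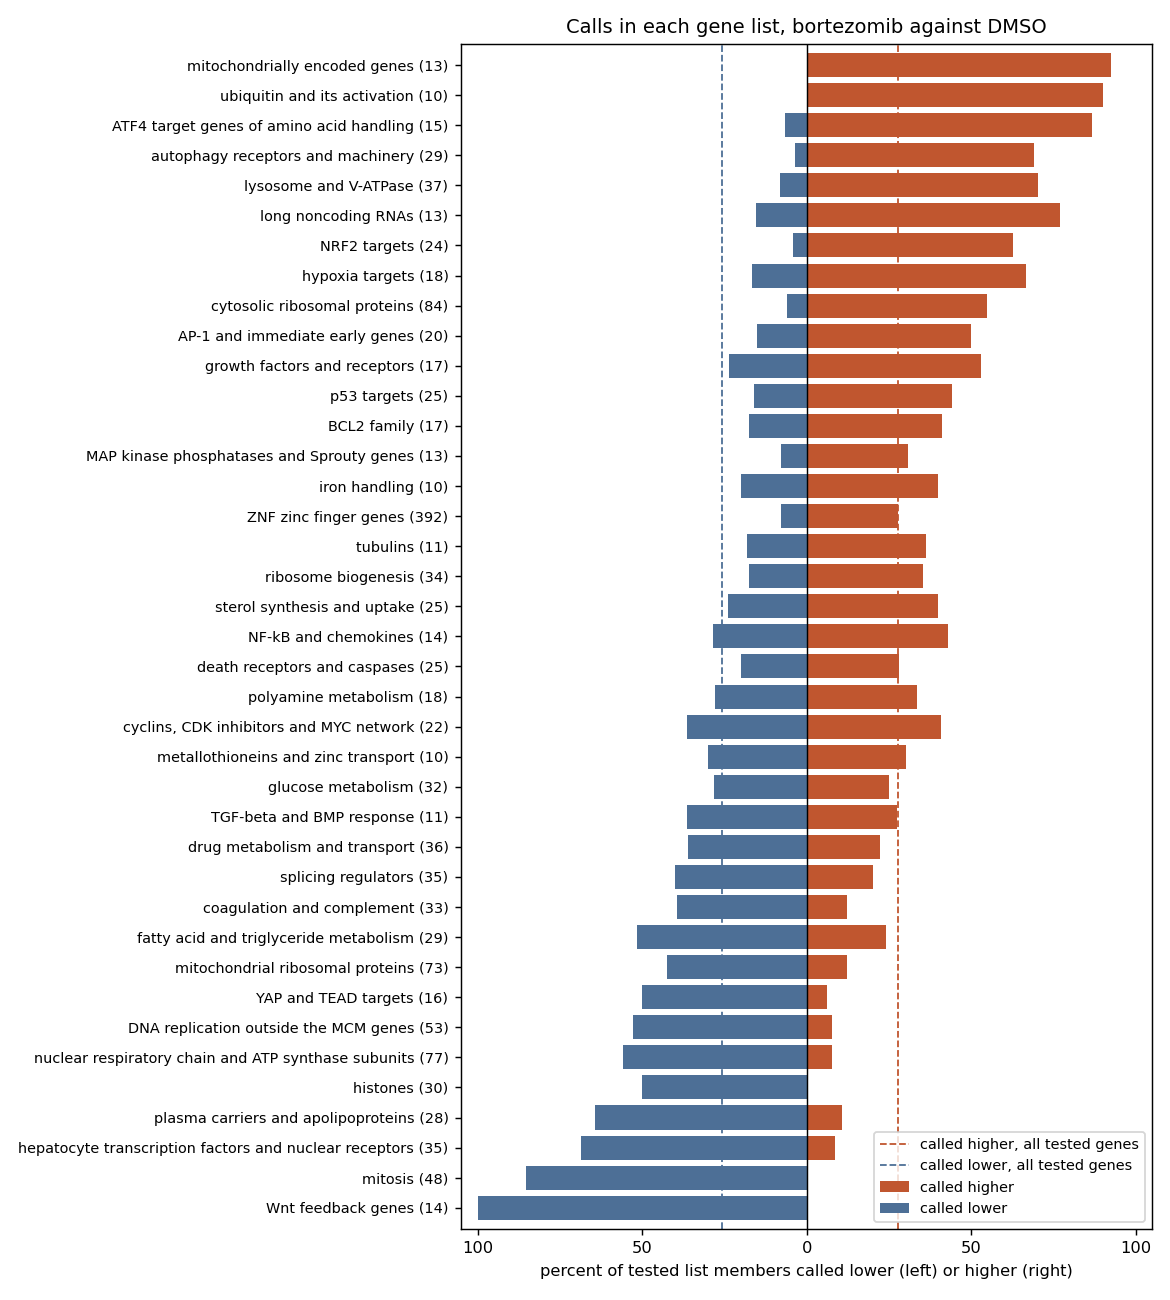
Percent of tested members called higher (right) or lower (left) in bortezomib in each of 39 gene lists, with the number of tested members in parentheses and the shares over all tested genes as dashed lines (27.6% and 25.8%). Mitochondrially encoded genes and ubiquitin genes stand at the higher end with no member called lower, and mitosis and Wnt feedback genes at the lower end with no member called higher.

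Genes of the ubiquitin system and of autophagy were among the most uniformly raised. Of 10 genes for ubiquitin itself, its activating enzymes and its shuttle proteins, 9 were called higher and 0 lower, with a median log2 fold change of 1.10 against 0.00 over all tested genes. On library totals alone 7 were called higher and 1 lower (median 0.60). UBB, which encodes a chain of fused ubiquitin units, was at 366, 365, 385 and 394 scaled CPM in the DMSO libraries and at 899, 899, 867 and 886 in the bortezomib libraries. No bortezomib library came near the DMSO range, and the difference was 1.23 on the log2 scale (SE 0.0878, adjusted p = 9.61e-14). ZFAND2A, a zinc finger protein that associates with the proteasome under stress, rose more than UBB (3.51), and UBQLN1, a shuttle that carries tagged proteins to the proteasome, rose by 1.45.

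In the autophagy list 20 of 29 tested genes were called higher, 12 of them by more than 2-fold, and 1 was called lower (median 0.73, or 0.23 with 12 higher and 6 lower on library totals alone). GABARAPL1 (chromosome 12 of GRCh37, 10365057 to 10375727), a member of the ATG8 family that coats autophagosome membranes, had 4.65, 2.99, 3.50 and 3.68 scaled CPM in the DMSO libraries and 130, 108, 119 and 124 in the bortezomib libraries. The log2 fold change, 5.00 (SE 0.146, adjusted p = 4.05e-24), was among the largest of any pathway gene. MAP1LC3B, the ATG8 gene whose product is the usual marker of autophagosomes, rose from 21.1 ± 2.86 to 164 ± 18.1 scaled CPM (mean ± SD, n = 4), although part of its reads may be shared with the near-identical copy MAP1LC3B2. ULK1, the kinase that starts autophagosome formation, rose by 3.19 on the log2 scale, and SQSTM1, the p62 receptor that delivers ubiquitin-tagged cargo, by 2.07. The exception was TFEB, the transcription factor of lysosomal genes, at 4.88, 3.25, 3.78 and 6.01 scaled CPM in DMSO and 0.642, 0.194, 2.96 and 0.648 in bortezomib, a fall on low counts (log2 fold change −2.01, adjusted p = 0.00348).

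Lysosomal genes moved the same way as the autophagy genes. Of 37 tested genes for lysosomal enzymes, membrane proteins and subunits of the V-ATPase, the pump that acidifies lysosomes, 26 were called higher and 3 lower (median 0.58, or 0.08 with 12 higher and 8 lower on library totals alone). GLA, α-galactosidase A, had 17.1, 21.7, 21.8 and 20.6 scaled CPM in DMSO and 104, 101, 98.4 and 97.9 in bortezomib. PSAP, the precursor of the saposins that help break down sphingolipids, had 344, 381, 385 and 386 and 1605, 1580, 1545 and 1793 in the same order. Neither gene's groups overlapped, with log2 fold changes of 2.31 and 2.12. TPP1, a lysosomal peptidase, rose by a log2 value of 1.5, the protease CTSL by 1.73 and the membrane protein LAMP1 by 0.71. The V-ATPase subunit gene ATP6V0E2 went against the list, from 323 ± 25.7 to 108 ± 12.4 scaled CPM (mean ± SD, n = 4).

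**Figure D2:**
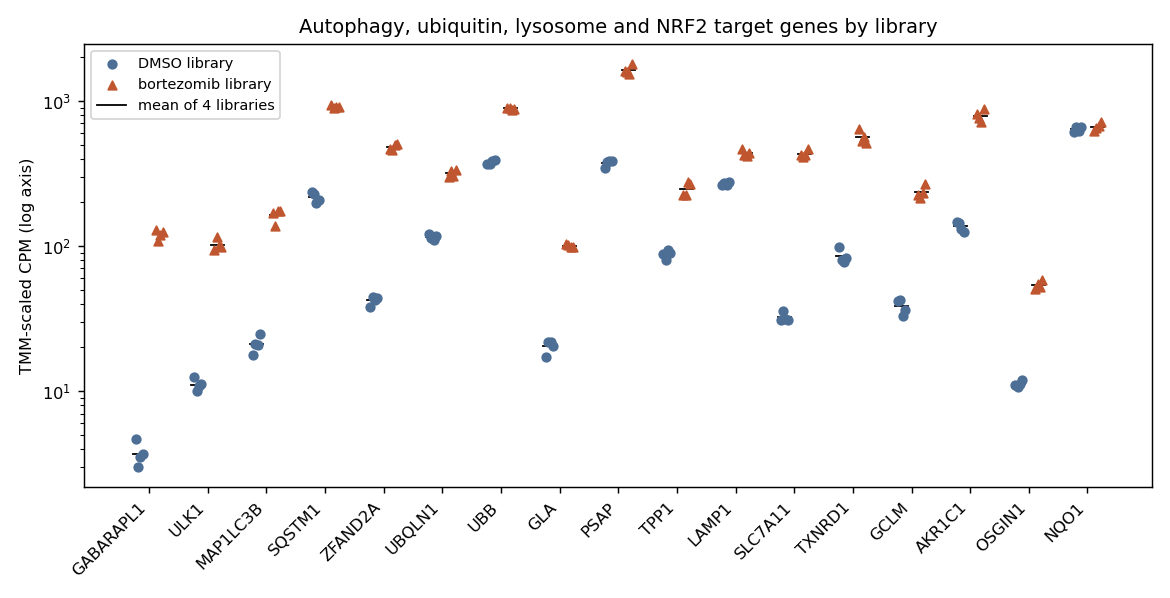
Scaled CPM (log axis) in each of the 4 DMSO libraries (circles) and 4 bortezomib libraries (triangles) for genes of autophagy, ubiquitin, the lysosome and NRF2, with a bar at each mean. The triangles lie above the circles for each gene plotted except NQO1, where they overlap.

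Targets of NRF2, the transcription factor of the antioxidant response, were more often higher than lower. Over the list, 15 of 24 tested genes were called higher, 10 by more than 2-fold, and 1 lower (median 0.55, or 0.05 with 10 higher and 6 lower on library totals alone). SLC7A11, the cystine transporter, rose from 32.2 ± 2.39 to 432 ± 22.8 scaled CPM (mean ± SD, n = 4). It is counted in the list of ATF4 target genes of amino acid handling as well, so its rise is not particular to NRF2 targets. GCLM, the regulatory subunit of the enzyme that limits glutathione synthesis, had 41.8, 42.3, 32.9 and 36.2 in the DMSO libraries and 225, 214, 231 and 267 in the bortezomib libraries. TXNRD1, thioredoxin reductase, had 98.2, 80.6, 77.7 and 83.2 and 641, 531, 565 and 515, a rise of 2.73 on the log2 scale (SE 0.165, adjusted p = 1.55e-15). AKR1C1, an aldo-keto reductase that shares sequence with AKR1C2, rose by 2.53, TALDO1 of the pentose phosphate pathway by 1.76 and OSGIN1 by 2.27. The classical marker NQO1 did not pass the test: its 4 DMSO libraries held 615, 659, 621 and 663 scaled CPM and its bortezomib libraries 623, 646, 671 and 712. HMOX1, haem oxygenase, was called higher by less than 2-fold (0.62, or 0.12 and not called on library totals alone), from 93.1, 94.8, 65.2 and 77.6 to 160, 128, 106 and 114 scaled CPM.

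The antioxidant response element to which NRF2 binds was searched as TGACNNNGC on either strand in the 250 bases upstream of the RefSeq start of each gene (GRCh38.p14). It was present in 4 of 17 NRF2 target promoters found in the table and in 8 of 23 promoters of the lysosome list, beside 12.4% of the 8949 tested genes with a promoter and 10.9% of all 35116 promoters. The 2 sequences that follow are shown because their genes rose more than 4-fold and each holds the letters searched, printed in capitals. The match begins 99 bases before the start of TXNRD1 (chr12:104215529-104215778, plus strand) and 34 bases before that of GCLM (chr1:93909431-93909680, minus strand).
TXNRD1: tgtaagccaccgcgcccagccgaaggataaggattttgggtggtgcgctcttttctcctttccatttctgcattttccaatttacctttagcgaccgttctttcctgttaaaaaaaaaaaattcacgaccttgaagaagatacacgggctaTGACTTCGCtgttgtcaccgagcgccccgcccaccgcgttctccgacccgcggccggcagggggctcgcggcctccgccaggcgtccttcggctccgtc
GCLM: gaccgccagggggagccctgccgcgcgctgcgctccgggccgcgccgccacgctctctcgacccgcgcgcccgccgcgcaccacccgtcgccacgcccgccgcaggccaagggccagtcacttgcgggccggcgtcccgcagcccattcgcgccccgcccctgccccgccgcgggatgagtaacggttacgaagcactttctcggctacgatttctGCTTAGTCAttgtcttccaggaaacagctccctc
A match in these letters is a description of the promoter and was not tested as a binding site.

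ATF4 target genes of amino acid handling, which import amino acids and make asparagine, cysteine and one-carbon units, were called higher in 13 of 15 cases (median 2.09), and the 1 called lower was not called without DMSO replicate 1 or without DMSO replicate 2. SESN2, a sestrin that restrains mTORC1 when leucine is scarce, was at 33.5, 31.0, 27.2 and 27.9 scaled CPM in DMSO and at 359, 374, 327 and 362 in bortezomib, about 10 times as high or more in each bortezomib library. SESN1, its p53-driven relative, fell by 0.94 on the log2 scale.

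Among AP-1 and immediate early genes, 10 of 20 were called higher and 3 lower, and each of the 10 higher calls exceeded 2-fold (median 1.20, with 10 higher and 8 lower on library totals alone). ATF3, a stress-induced partner of JUN, had 2.09, 1.56, 1.12 and 1.84 scaled CPM in the DMSO libraries and 76.4, 70.4, 62.1 and 74.8 in the bortezomib libraries. JUN itself had 39.9, 43.0, 40.03 and 35.7 and 219, 224, 194 and 231, and FOSL1, the Fra-1 subunit, rose by 2.56 on the log2 scale. The zinc finger factor KLF6 rose by 2.60. Among the members called lower, EGR1 fell from 7.51 ± 0.856 to 1.76 ± 0.955 scaled CPM (mean ± SD, n = 4) and IER2 by 0.93 on the log2 scale, while IER3 did not pass the test. DUSP1, the phosphatase that switches off JNK and p38, was at 2.21, 2.73, 3.64 and 1.84 scaled CPM in DMSO and at 36.1, 31.2, 45.8 and 42.6 in bortezomib (log2 fold change 3.91, adjusted p = 1.33e-15). The ERK phosphatase DUSP6 rose by 0.89 and the ERK antagonist SPRY1 fell by 1.13. In all 4 of 13 MAP kinase phosphatases and Sprouty genes were called higher and 1 lower (median 0.30, turning to −0.20 with 2 higher and 4 lower on library totals alone), or 3 lower without bortezomib replicate 3.

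The p53 target list was mixed. Of 25 genes 11 were called higher and 4 lower (median 0.39, turning to −0.11 with 9 lower on library totals alone). SESN2, BBC3 and TNFRSF10B, described in other paragraphs, are among those called higher. Their rises are thus not particular to p53 targets. GADD45A, a growth arrest gene, had 23.7, 25.4, 26.2 and 20.0 scaled CPM in DMSO and 126, 122, 106 and 122 in bortezomib. CDKN1A, which encodes the cell cycle inhibitor p21, and MDM2, the ligase that degrades p53, rose by less than 2-fold (0.94 and 0.83 on the log2 scale). DDB2, a DNA damage sensor with a p53-driven promoter, fell from 24.3 ± 2.00 to 11.5 ± 1.59 scaled CPM (mean ± SD, n = 4), and FAS did not pass the test. TP53INP1 rose by 1.30.

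Genes of apoptosis changed on the activating side and on the protective side. In the BCL2 family 7 of 17 genes were called higher and 3 lower (median 0.24, turning to −0.25 with 5 higher and 6 lower on library totals alone), and without DMSO replicate 1 1 was called lower. BBC3, which encodes the BH3-only activator PUMA, had 18.7, 16.7, 21.1 and 18.8 scaled CPM in DMSO and 72.9, 77.0, 81.3 and 80.0 in bortezomib, and PMAIP1, which encodes NOXA, had 2.44, 1.95, 1.4 and 1.35 and 9.41, 6.59, 6.13 and 14.05. Neither gene's groups overlapped, and PMAIP1 stayed at a low level in all 8 libraries (log2 fold change 2.32, SE 0.331). The protective gene MCL1, partner of NOXA, rose from 86.7 ± 5.24 to 166 ± 17.5 scaled CPM (mean ± SD, n = 4), whereas BCL2 fell on low counts (−2.01) and BCL2L1 and BCL2L11 did not pass the test.

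Death receptor and caspase genes were called higher in 7 of 25 cases and lower in 5, shares close to the 27.6% and 25.8% of all genes, and on library totals alone 5 were higher and 12 lower. The receptors and their ligand moved apart. TNFRSF10B, the TRAIL receptor DR5, had 56.6, 59.4, 61.4 and 58.3 scaled CPM in the DMSO libraries and 281, 271, 289 and 311 in the bortezomib libraries. TNFRSF10A, the TRAIL receptor DR4, had 51.4, 51.4, 45.8 and 44.98 and 177, 180, 170 and 200. TNFSF10, which encodes TRAIL itself, had 5.69, 4.56, 3.92 and 4.53 scaled CPM in DMSO but was at 0 in 3 bortezomib libraries and at 0.634 in the fourth. TNFSF9, the ligand of 4-1BB, rose from 1.27 ± 0.175 to 24.6 ± 5.18 scaled CPM (mean ± SD, n = 4). The caspase inhibitor BIRC3, a target of NF-kB, fell by 2.09 on the log2 scale.

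Genes of the NF-kB pathway changed in both directions. TNFAIP3, the A20 brake on NF-kB signalling, had 41.3, 39.3, 39.7 and 33.2 scaled CPM in DMSO and 23.1, 15.3, 10.98 and 14.9 in bortezomib. NFKBIA, the inhibitor IκBα, fell by 0.44 on the log2 scale. NFKB2 and its partner RELB rose by 1.57 and 1.14, and the cytokine genes IL32 and IL8 by 1.13 and 2.74, with IL8 below 5 scaled CPM in every library. Over the list 6 of 14 genes were called higher and 4 lower (median 0.39, turning to −0.10 with 4 higher and 5 lower on library totals alone).

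The Wnt feedback list was called in 1 direction throughout. Wnt signals act through β-catenin and TCF factors, and their target genes include several that dampen the signal again. The list was wider than genes that dampen the signal, and also held the β-catenin gene CTNNB1, the TCF factor gene TCF7L2, TBX3 and GLUL. All 14 of 14 tested genes were called lower, 11 of them by more than 2-fold, with log2 fold changes between −3.95 and −0.30 and a median of −1.25. SP5 (chromosome 2 of GRCh37, 171571847 to 171574588), a transcription factor induced directly by β-catenin, had 161, 230, 231 and 243 scaled CPM in DMSO and 19.2, 17.6, 28.5 and 21.8 in bortezomib. The first DMSO library lay below the other DMSO libraries, but far above each bortezomib library (log2 fold change −3.31, SE 0.303, adjusted p = 4.26e-11). AXIN2, the scaffold of the β-catenin destruction complex and a common readout of the pathway, had 87.6, 80.4, 74.3 and 74.4 and 31.4, 39.0, 32.5 and 23.3 in the same order. ZNRF3, which with RNF43 removes Wnt receptors from the cell surface, had 58.0, 59.9, 57.4 and 56.1 and 15.6, 13.96, 19.4 and 14.5. RNF43 was at 81.0, 93.1, 81.5 and 81.7 scaled CPM in the DMSO libraries and at 5.56, 4.46, 7.18 and 4.54 in the bortezomib libraries. None of these genes had overlapping groups. The secreted inhibitor DKK1 fell by 2.44 on the log2 scale, the BMP pseudoreceptor BAMBI by 2.41, the transcription factor TCF7 by 1.20, the R-spondin receptor LGR5 by 1.05 and the intracellular inhibitor NKD1 by 0.70.

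**Figure D3:**
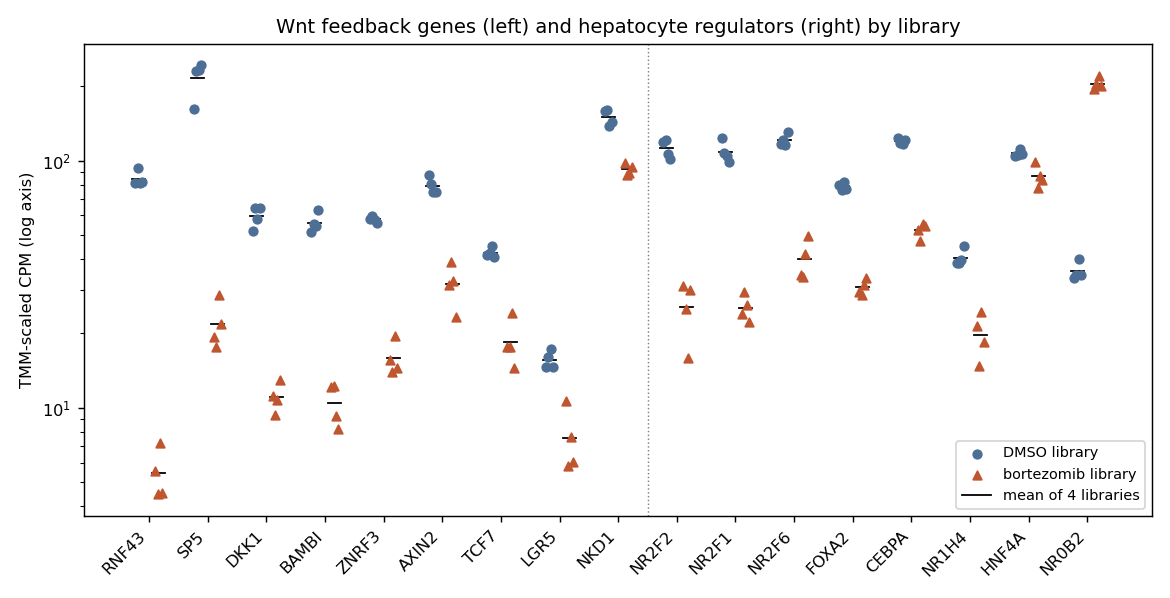
Scaled CPM (log axis) in each of the 4 DMSO libraries (circles) and 4 bortezomib libraries (triangles) for Wnt feedback genes and for hepatocyte transcription factors and nuclear receptors, with a bar at each mean. All triangles lie below the circles except for NR0B2, which rose from 33.4 to 40.2 up to 194 to 219.

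Other signalling pathways were less uniform. Among YAP and TEAD targets 1 of 16 genes was called higher, CYR61, and 8 lower (median −0.30), with 2 called higher without bortezomib replicate 3 and 0 higher and 12 lower on library totals alone, where CYR61 was at 0.68. The 2 CCN genes that serve as YAP readouts went in opposite directions: CTGF had 35.0, 34.0, 43.8 and 38.4 scaled CPM in DMSO and 2.99, 0.970, 5.07 and 7.996 in bortezomib, while CYR61 had 5.35, 3.91, 4.34 and 6.13 and 16.9, 4.07, 10.6 and 13.6, a rise with overlapping groups (log2 fold change 1.18, adjusted p = 0.00342). ANKRD1, another target, did not pass the test, and TEAD4 fell by 1.24. In the TGF-β and BMP list 3 of 11 genes rose and 4 fell, or 1 and 6 on library totals alone. BMP4 fell from 495 ± 93.1 to 156 ± 5.51 scaled CPM (mean ± SD, n = 4), its target ID2 by 1.24 on the log2 scale and the inhibitor SMAD7 by 1.43, whereas ID1 and ID3 did not pass the test.

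Growth factor and receptor genes included large changes in both directions. GDF15, a cytokine that suppresses appetite, had 185, 195, 130 and 145 scaled CPM in the DMSO libraries and 4613, 4064, 3582 and 4094 in the bortezomib libraries (log2 fold change 4.64). IGFBP1, a liver protein that binds insulin-like growth factors, had 2.32, 1.17, 3.92 and 2.21 and 79.6, 74.1, 77.5 and 89.0. EREG, an EGF receptor ligand, rose by 3.52 and HBEGF, another, by 1.91 on low counts. The receptors FGFR3 and ERBB3 fell by 2.20 and 0.92. In all 9 of 17 growth factor and receptor genes were called higher and 4 lower (median 0.29, turning to −0.21 with 5 higher and 9 lower on library totals alone).

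The list of hepatocyte transcription factors, which also held nuclear receptors in general, was mostly reduced. Of 35 tested hepatocyte transcription factors and nuclear receptors, 24 were called lower, 16 by more than 2-fold, and 3 higher (median −0.82). FOXA2, a pioneer factor of liver chromatin, had 79.4, 76.3, 82.0 and 76.8 scaled CPM in DMSO and 29.3, 28.5, 31.5 and 33.5 in bortezomib. CEBPA, which sustains metabolic genes of the hepatocyte, had 124, 118, 117 and 121 and 52.6, 47.1, 55.6 and 54.5. The COUP-TF genes fell together, NR2F1 from 108 ± 10.6 to 25.4 ± 3.02 scaled CPM (mean ± SD, n = 4), NR2F2 by 2.14 and NR2F6 by 1.60 on the log2 scale. PPARGC1A, the coactivator of gluconeogenesis and mitochondrial biogenesis, had 8.37, 7.16, 9.10 and 8.21 scaled CPM in DMSO and at most 1.28 in bortezomib. HNF4A, the central regulator of the network, fell by only 0.30 (adjusted p = 0.0215, and 0.0505 without DMSO replicate 3), and the bile acid receptor NR1H4 fell by 1.04. NR0B2, the small heterodimer partner that represses bile acid synthesis, was an exception, at 33.4, 34.4, 40.2 and 34.6 scaled CPM in the DMSO libraries and 194, 205, 219 and 199 in the bortezomib libraries, and NR1D2, a clock repressor, rose by 1.17. The third called higher, named here after its value was seen, was NR1H2, the oxysterol receptor LXRβ (0.98).

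Plasma protein genes were mostly lower too. Of 28 plasma carrier and apolipoprotein genes 18 were called lower and 3 higher (median −0.67). The class as a whole fell from 2.63% ± 0.109 (mean ± SD, n = 4) to 1.41% ± 0.0365 of all counts, a share that follows library totals. SERPINA7, the thyroxine carrier, had 83.8, 86.4, 110 and 100 scaled CPM in DMSO and 10.1, 12.8, 10.6 and 19.4 in bortezomib. TTR, the carrier of thyroxine and retinol, had 114, 108, 133 and 127 and 39.1, 38.0, 43.3 and 50.8. AFP, the fetal albumin, fell from 3014 ± 290 to 1259 ± 52.0 scaled CPM (mean ± SD, n = 4) and APOC3, which slows clearance of triglyceride-rich particles, by 1.97 on the log2 scale. ALB, the albumin gene, stood at 3294, 3126, 3533 and 3340 scaled CPM in DMSO and at 2997, 2638, 3070 and 2951 in bortezomib and did not pass the test (−0.19, adjusted p = 0.202), although a model of these 8 libraries alone called it lower (adjusted p = 0.00566), as did the fits with no filter and on library totals alone. SERPINA1, α1-antitrypsin, did not pass the test. RBP4, the retinol carrier, rose by 0.58, AMBP by 0.24 and APOE by 0.48, these being the members called higher, and on library totals alone their log2 fold changes were 0.09, −0.26 and −0.02. AMBP was not called without DMSO replicate 2, without bortezomib replicate 1, 2 or 4, with upper-quartile factors or with no filter. Coagulation and complement genes were called lower in 13 of 33 cases and higher in 4 (median −0.07, with 20 lower and 1 higher on library totals alone), with fibrinogen genes FGA and FGG at −0.79 and −0.85, prothrombin F2 not called and complement C3 at 0.54 (0.04 and not called on library totals alone).

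Enzymes of drug and bile acid metabolism changed in both directions, 8 higher and 13 lower of 36 (median −0.12, with 7 and 20 on library totals alone). CYP7A1, the rate-limiting enzyme of bile acid synthesis, had 5.69, 5.99, 5.60 and 5.52 scaled CPM in DMSO and 1.07, 0.582, 0.634 and 1.51 in bortezomib, opposite in direction to its repressor NR0B2. SULT2A1, which sulfates bile acids and steroids, had 198, 209, 218 and 218 and 39.99, 37.8, 35.5 and 30.3. MGST2 fell by 2.16 on the log2 scale. CYP4F11, a fatty acid hydroxylase, rose from 4.88 ± 1.17 to 36.8 ± 2.03 scaled CPM (mean ± SD, n = 4), POR, the electron donor of microsomal P450 enzymes, by 1.61 and CYP1A1, a target of the aryl hydrocarbon receptor, by 1.36.

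Lipid genes changed in both directions. In the sterol list 10 of 25 genes were called higher and 6 lower (median 0.18, turning to −0.32 with 1 higher and 14 lower on library totals alone), and 6 were called higher without DMSO replicate 2, without bortezomib replicate 2 or with upper-quartile factors. HMGCS1, an early enzyme of the SREBP-driven cholesterol programme, did not pass the test. Late enzymes of cholesterol synthesis fell, EBP by 1.02 and TM7SF2 by 1.32 on the log2 scale. Of 29 fatty acid and triglyceride genes 7 were called higher and 15 lower (median −0.30), or 4 and 21 on library totals alone. LPIN1, which makes diacylglycerol and acts as a coactivator, had 16.97, 18.0, 17.6 and 19.4 scaled CPM in DMSO and 75.5, 73.3, 75.8 and 62.9 in bortezomib. ACADM, which oxidises medium-chain fatty acids, and ACADVL, which oxidises very long chains, went in opposite directions (−1.38 and 1.23), and DGAT2, which completes triglyceride synthesis, fell by 1.11. The lipid droplet coat gene PLIN2 rose by 0.86 and FASN did not pass the test.

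Glucose genes were called at shares near the background, 8 higher and 9 lower of 32, or 3 and 17 on library totals alone, but their transporters stood out. SLC2A2, the low-affinity glucose carrier GLUT2 of hepatocytes, had 160, 160, 173 and 159 scaled CPM in DMSO and 18.6, 20.4, 33.6 and 29.2 in bortezomib. SLC2A3, the high-affinity carrier GLUT3, had 270, 311, 291 and 298 and 76.1, 93.9, 84.3 and 103. SLC2A1, the ubiquitous carrier GLUT1, rose by 0.43 on the log2 scale, which became −0.07 on library totals alone. GCKR, the inhibitor of glucokinase, rose from 9.70 ± 1.34 to 74.2 ± 13.5 scaled CPM (mean ± SD, n = 4), and the gluconeogenic gene PCK1 was under 2 scaled CPM in all libraries. Hypoxia targets, driven by HIF factors that the proteasome degrades, were called higher in 12 of 18 cases and lower in 3 (median 0.80, or 0.31 with 8 higher and 4 lower on library totals alone). The collagen hydroxylase P4HA2 had 17.8, 16.4, 22.8 and 19.1 scaled CPM in DMSO and 102, 101, 95.3 and 104 in bortezomib, VEGFA rose by 1.06 and ADM by 1.54, but NDRG1, another HIF target, did not pass the test, and HILPDA fell by 1.05 and LOX fell by 1.67.

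Of the polyamine genes, SAT1, which acetylates polyamines for export, and SMOX, which oxidises spermine, rose by far more than 2-fold: SMOX had 18.2, 17.3, 16.1 and 16.8 scaled CPM in DMSO and 150, 145, 135 and 151 in bortezomib, and SAT1 had 122, 122.8, 127 and 124 and 859, 910, 926 and 789. The synthetic enzyme ODC1, itself a substrate of the proteasome without ubiquitin, rose by 0.69 and its antizyme OAZ1 by 0.49, whereas the synthetic enzyme AMD1 fell by 0.37 and the peroxisomal oxidase PAOX by 1.42, and on library totals alone ODC1 was at 0.19 and not called and OAZ1 at −0.01. Over the list 6 of 18 genes were called higher and 5 lower, near the background, or 2 and 9 on library totals alone. Metallothionein and zinc genes were likewise near the background (3 higher and 3 lower of 10, median 0.21, turning to −0.29 with 1 higher and 4 lower on library totals alone), with MT2A at 101, 95.4, 109 and 92.9 scaled CPM in DMSO and 140, 137, 108 and 154 in bortezomib, and the metal-sensing factor MTF1 at 18.5, 16.01, 13.4 and 16.7 and 43.2, 50.0, 32.7 and 29.4. Without bortezomib replicate 4, 1 metallothionein or zinc gene was called higher and MT2A was not, and on library totals alone MT2A was at −0.07. Of 10 iron genes 4 were called higher and 2 lower (1 and 6 on library totals alone), among the higher ferritin light chain FTL, from 4462 ± 79.1 to 7763 ± 567 scaled CPM (mean ± SD, n = 4).

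Genes of cell division were mostly lower. Of 48 tested mitosis genes 41 were called lower, 13 by more than 2-fold, and 0 higher (median −0.72). TOP2A (chromosome 17 of GRCh37, 38544777 to 38574148), the topoisomerase that separates sister chromatids, had 1584, 1492, 1426 and 1427 scaled CPM in DMSO and 519, 542, 482 and 502 in bortezomib. BIRC5, survivin of the chromosomal passenger complex, had 169, 174, 185 and 185 and 71.9, 60.7, 64.8 and 77.4. CDC20, the activator of the anaphase-promoting complex, had 106, 122.8, 90.7 and 97.8 and 42.6, 34.9, 52.8 and 45.6. The groups of all these genes were clear of each other. CDK1, the kinase of mitotic entry, fell by 1.05, the kinetochore gene NDC80 by 1.48 and the kinase PLK1 by 0.77, but CCNB1, which encodes the cyclin of CDK1, fell by only 0.35, from 136 ± 8.48 to 107 ± 4.23 scaled CPM (mean ± SD, n = 4).

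The CCAAT box, searched as CCAAT on either strand, was present in the 250 upstream bases of 30 of 40 mitosis gene promoters found in the RefSeq table (75.0%), beside 36% of all tested genes with a promoter and 32.0% of all promoters. Of the replication genes 51.2% and of all genes called lower 37.2% held it. The share was as high in the sterol list (14 of 18, 77.8%), where more genes were called higher than lower, and was 64.3% in the hypoxia list. The promoters of TOP2A (chr17:40417897-40418146, minus strand), CDC20 (chr1:43358731-43358980, plus strand) and CCNB1 (chr5:69166900-69167149, plus strand) on GRCh38.p14 are shown because each holds more than 1 copy, in capitals, on the strand read as CCAAT or as its complement ATTGG. The copies begin 244, 160, 93 and 53 bases before the start of TOP2A, 100 and 55 before that of CDC20, and 87 and 55 before that of CCNB1.
TOP2A: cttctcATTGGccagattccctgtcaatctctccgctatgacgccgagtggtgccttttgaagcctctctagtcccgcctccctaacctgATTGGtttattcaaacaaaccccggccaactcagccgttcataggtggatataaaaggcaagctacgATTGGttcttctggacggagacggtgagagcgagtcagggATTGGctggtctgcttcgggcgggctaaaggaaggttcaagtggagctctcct
CDC20: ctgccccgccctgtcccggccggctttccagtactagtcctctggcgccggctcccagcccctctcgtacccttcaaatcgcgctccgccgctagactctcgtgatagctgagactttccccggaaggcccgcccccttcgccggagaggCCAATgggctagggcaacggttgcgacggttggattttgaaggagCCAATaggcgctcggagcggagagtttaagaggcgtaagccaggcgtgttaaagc
CCNB1: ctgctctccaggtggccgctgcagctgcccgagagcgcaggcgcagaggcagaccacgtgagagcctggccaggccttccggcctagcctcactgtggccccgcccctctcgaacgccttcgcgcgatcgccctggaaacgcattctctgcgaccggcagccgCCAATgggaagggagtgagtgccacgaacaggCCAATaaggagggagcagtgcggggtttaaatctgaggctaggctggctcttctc
The spacing of the last copies, 53 to 55 bases before the start, was alike in the 3 promoters, while their genes' log2 fold changes ran from −1.54 to −0.35.

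Replication genes outside the MCM complex were called lower in 28 of 53 cases and higher in 4 (median −0.54). PCNA, the sliding clamp, had 208, 218, 232 and 224 scaled CPM in DMSO and 104.8, 85.7, 116 and 123.2 in bortezomib. FEN1, which trims Okazaki fragments, had 168, 153, 160 and 178 and 78.9, 81.1, 67.6 and 84.1. TYMS and RRM2, enzymes of nucleotide supply, fell by 0.95 and 0.48 on the log2 scale. The members called higher were CDT1 (0.45), CCNE1 (0.68), ORC6 (0.59) and CDC45 (0.72), or 7.55% of the list beside 27.6% of all tested genes. E2F1 and CDC6 did not pass the test. On library totals alone 0 replication genes were called higher and 47 were called lower, with CDT1 at −0.05, CCNE1 at 0.19 and CDC45 at 0.22. CDT1 was not called without bortezomib replicate 2.

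Cyclin, CDK and MYC network genes were called in both directions, 9 higher and 8 lower of 22 (median 0.32, turning to −0.18 with 6 higher and 10 lower on library totals alone). CCND1, the cyclin D gene of the G1 phase, had 152, 146, 149 and 144 scaled CPM in DMSO and 46.4, 49.3, 30.6 and 35.2 in bortezomib. Its partner kinases moved apart, with CDK6 falling by 1.35 on the log2 scale and CDK4 rising by 1.14. MXD1, a MYC antagonist, rose from 10.2 ± 0.668 to 48.4 ± 4.11 scaled CPM (mean ± SD, n = 4), and MYC itself did not pass the test (14.1, 18.9, 19.03 and 19.6 in DMSO and 21.8, 23.1, 25.8 and 25.7 in bortezomib, adjusted p = 0.315) although its groups did not overlap, and a model of these 8 libraries alone called it higher (adjusted p = 0.0209).

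Histone genes were called lower in 15 of 30 cases and higher in 0 (median −0.96), and the class fell from 0.280% ± 0.00803 (mean ± SD, n = 4) to 0.142% ± 0.00675 of all counts, a share that follows library totals. Most histone mRNAs made in S phase end in a stem-loop in place of a poly(A) tail, and the libraries were primed on poly(A), so the counts cover only part of them. H2AFZ, a variant histone gene with a polyadenylated mRNA, had 504, 571, 637 and 641 scaled CPM in DMSO and 262, 286, 249 and 303 in bortezomib, whereas H1F0, another histone gene of this kind, did not pass the test. HIST1H1C, a linker histone gene, fell by 1.85 and the damage-marked variant H2AFX by 1.27.

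Respiratory chain genes of the 2 genomes went in opposite directions. Of 13 mitochondrially encoded genes 12 were called higher and 0 lower (median 1.18), a count that was 11 higher on library totals alone. MT-ND1, a complex I subunit, had 6500, 9442, 7803 and 7752 scaled CPM in the DMSO libraries and 22195, 22378, 27870 and 24990 in the bortezomib libraries. MT-CO1, a complex IV subunit, rose from 2336 ± 158 to 5963 ± 100 scaled CPM (mean ± SD, n = 4). The gene not called was MT-ND6, the protein gene read from the other strand of the mitochondrial genome, at 275, 227, 212 and 173 in DMSO and 284, 251, 210 and 242 in bortezomib, and the strand setting of the counting is not given in the sources used here. Nuclear genes for respiratory chain and ATP synthase subunits were called lower in 43 of 77 cases and higher in 6 (median −0.33), or 71 and 0 on library totals alone. Their share of all counts, which follows library totals, fell from 1.46% ± 0.0529 (mean ± SD, n = 4) to 0.813% ± 0.0429. ATP5G1, for the rotating c subunit of ATP synthase, had 150, 148, 146 and 152 scaled CPM in DMSO and 47.1, 45.2, 44.4 and 52.3 in bortezomib, and UQCR10 of complex III had 101, 104.7, 113 and 112 and 40.6, 33.9, 36.5 and 32.4. NDUFA4 and COX4I1, of complex IV, did not pass the test. Without bortezomib replicate 3, 3 nuclear subunit genes were called higher and 44 lower.

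**Figure D4:**
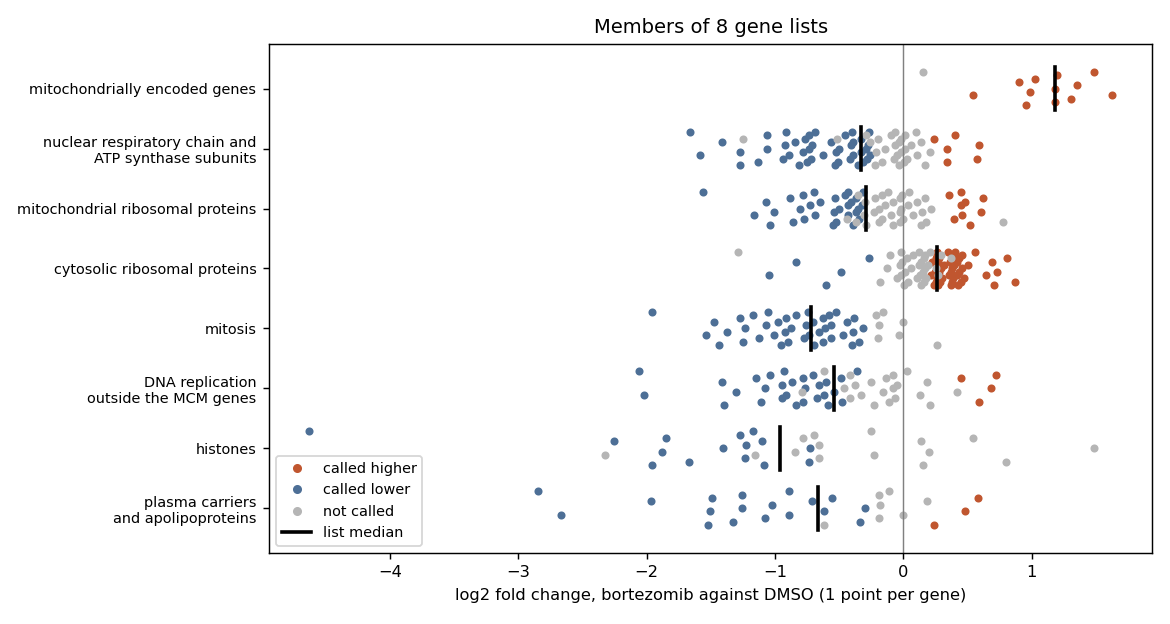
Log2 fold change (bortezomib against DMSO) of every tested member of 8 gene lists, 1 point per gene coloured by its call, with a bar at the list median. Mitochondrially encoded genes lie to the right (median 1.18) and nuclear respiratory chain genes mostly to the left (median −0.33), and histone and mitosis genes lie mostly to the left of 0.

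Cytosolic and mitochondrial ribosomal protein genes also parted. Of 84 cytosolic genes 46 were called higher, 0 of them by more than 2-fold, and 5 lower (median 0.26), but on library totals alone 4 were called higher and 48 lower with a median of −0.24, and without bortezomib replicate 4 28 were called higher and 7 lower. RPL3 had 277, 302, 341 and 337 scaled CPM in DMSO and 432, 430, 419 and 503 in bortezomib. Many of these genes share reads with processed pseudogenes. RPS27L, a p53-regulated relative of RPS27, fell by 1.05 on the log2 scale. Mitochondrial ribosomal protein genes were called lower in 31 of 73 cases and higher in 9 (median −0.29, or 59 and 0 on library totals alone), with MRPS26 going from 115 ± 6.16 to 55.8 ± 8.74 scaled CPM (mean ± SD, n = 4). Ribosome biogenesis genes were called higher in 12 of 34 cases and lower in 6 (median 0.14, turning to −0.36 with 4 higher and 21 lower on library totals alone), and UBTF, which recruits RNA polymerase I, had 63.8, 55.2, 51.1 and 53.1 scaled CPM in DMSO and 22.9, 12.2, 14.2 and 22.04 in bortezomib.

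Nuclear RNAs and RNA regulators showed further changes. In a chosen list of 13 long noncoding RNAs 10 were called higher and 2 lower (median 1.00, or 0.50 with 7 higher and 3 lower on library totals alone). Without DMSO replicate 3 or without bortezomib replicate 2, 1 was called lower. The list does not stand for the class. Of all 1049 tested genes with a long noncoding gene model, 98 were called higher and 253 lower. NEAT1, the scaffold RNA of paraspeckles, had 404, 480, 363 and 403 scaled CPM in DMSO and 1690, 2346, 2819 and 1054 in bortezomib, with bortezomib replicate 4 the lowest of its group but above all DMSO libraries. MALAT1, of nuclear speckles, rose by 2.04 on the log2 scale and was also lowest in that library (17551, 18722, 18432 and 12575 scaled CPM in bortezomib). ZFAS1, a host of small nucleolar RNAs, rose from 234 ± 28.8 to 956 ± 69.5 scaled CPM (mean ± SD, n = 4), while the snoRNA host SNHG12 did not pass the test and SNHG9 fell by 2.09. Splicing regulators were called higher in 7 of 35 cases and lower in 14 (median −0.05, or 3 and 24 on library totals alone), and CLK1, a kinase that phosphorylates SR proteins, rose from 25.1 ± 2.49 to 83.6 ± 6.92. ZNF zinc finger genes were called higher in 109 of 392 cases, 27.8% against 27.6% of all genes, and lower in 31, 7.91% against 25.8% (median 0.20, turning to −0.29 with 36 higher and 102 lower on library totals alone). Tubulin genes were called higher in 4 of 11 cases and lower in 2 (median 0.23, turning to −0.27 with 3 higher and 5 lower on library totals alone). TUBA4A, at 1.16, 0.521, 0.420 and 0.490 scaled CPM in DMSO and 13.9, 4.85, 12.04 and 7.996 in bortezomib, and TUBB2B, at 0.232, 0.651, 1.26 and 0.613 and 11.8, 11.4, 5.28 and 7.56, were barely present in DMSO, while TUBB did not pass the test.

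Outside all lists, large rises among genes that reached 20 scaled CPM were those of MICALL2, a regulator of junction traffic, at 3.25, 5.34, 1.68 and 3.55 scaled CPM in DMSO and 67.8, 60.7, 57.9 and 44.5 in bortezomib (4.05 on the log2 scale), and FAM219A (3.87). ADM2, a peptide hormone gene, PTPRH, a receptor phosphatase gene, MAP1B, for a microtubule-associated protein, and YPEL5 followed at 3.45, 3.37, 3.31 and 3.20. The largest falls were those of VSNL1, a neuronal calcium sensor gene, at 43.9, 39.7, 44.9 and 44 scaled CPM in DMSO and 1.28, 3.49, 4.01 and 5.40 in bortezomib, the sodium channel gene SCN1A (−3.41) and SPTLC3, a subunit of serine palmitoyltransferase (−3.34). SEMA3A, for a repulsive guidance cue, fell by 3.32 and the chemokine receptor gene CCR6 by 3.12. These genes were picked by size, so their values are a description.

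Some genes had counts in 1 group only. With at least 5 counts in every library of a group and 0 in every library of the other, 6 genes were found only in bortezomib and 16 only in DMSO. KLHDC7B had 27, 27, 25 and 29 counts in the bortezomib libraries, at least 5.89 log2 units above a floor of 3 counts over the DMSO group. TMC2, P2RX1, the tryptase gene TPSG1 and HSPA6, a stress-inducible HSP70 gene, had 101, 100, 41 and 184 counts over the bortezomib group. On the DMSO side MCHR1, a receptor for melanin-concentrating hormone, had 14, 21, 20 and 24 counts. PRF1, perforin, TMEM121, the tetraspanin CD9 and the gene model labelled hsa-mir-1199 had 58, 45, 43 and 38 counts over the group. The paper counted only protein coding, lincRNA and antisense genes, so the value under the label hsa-mir-1199 is not a microRNA level. At a common total of 5154533 counts, 14165 to 14310 genes were detected in DMSO libraries and 12871 to 13087 in bortezomib libraries. Equal totals do not give a typical gene equal depth, since the TMM factors were 1.19 to 1.24 in DMSO and 0.846 to 0.869 in bortezomib. The part of this in the detection, and in the genes found in 1 group only, was not tested.

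The called genes also differed in structure. By the GENCODE models lifted to GRCh37, genes lowered by more than 2-fold had a median span of 20.6 kb and 5 exons, those raised by more than 2-fold 30.5 kb and 8 exons, and all tested genes 30.0 kb and 7 exons. Long noncoding genes made up 15% of the genes lowered by more than 2-fold, 6.44% of those raised and 8.46% of all tested. In the shortest decile of genes, those spanning at most 4.32 kb, 14.8% were called higher and 32.1% lower, and in the eighth decile, from 59.3 to 89.6 kb, 32.7% and 21%. The longest decile returned to 24.6% and 26.3%. The median DMSO level was 3.69 scaled CPM in the shortest decile and 19.8 in the eighth, and the part of level in these shares was not tested.

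Over all changed genes, the heat shock element core GAANNTTC on either strand was present in 5.82% of the promoters of genes raised by more than 2-fold, 3.05% of those lowered by more than 2-fold, 3.92% of all tested genes with a promoter and 5.78% of all promoters in the table. The antioxidant response element was in 13.8% and 11.3% of the same promoter groups. These shares describe letters in a 250-base window, which both holds matches by base composition alone and misses sites outside it.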

How the data were processed

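HepG2 libraries were made by the authors from total RNA with the QuantSeq 3′ FWD kit, which places 1 tag near the poly(A) end of a transcript, and sequenced as 80 bp single-end reads. Per the labels and methods, reads were trimmed with cutadapt 2.8, aligned to hg19 (GRCh37) with STAR and counted on Ensembl gene models. The deposited values are raw counts per gene, unscaled. The strand setting of the counting is not given in the sources used here. A transcript gives 1 tag whatever its length, so counts were not divided by length.

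The test was edgeR 4.0.16 (quasi-likelihood, TMM scaling, Benjamini-Hochberg adjustment) on all 24 libraries of the 6 treatment groups, which share the estimate of spread, with genes kept by filterByExpr at a minimum count of 5 and a total of 25. Genes at an adjusted p under 0.05 were called. SEs come from the quasi-likelihood fit and include the spread between libraries. The floor of 3 counts covers counting error only, and reads carry no stated molecular identifiers. Gene spans came from GENCODE v44 lifted to GRCh37, matched for 18304 of 18915 genes, and promoters from RefSeq on GRCh38.p14. The gene lists, and this comparison, were chosen with earlier results of these data known, and antisense transcripts caught by a name pattern were left out of the lists. Named genes were the key genes of each list, up to 3 per direction with the smallest p among those beyond 2-fold without overlap, the 10 largest changes per direction outside the lists from 20 CPM up, and the 5 most counted genes found in 1 group only. On simulated counts for this comparison, with 12685 genes, 83 of 200 genes changed by 1.5-fold were called, 141 of 200 at 2-fold and 186 of 200 at 4-fold. Of the unchanged genes 9, 10 and 12 were called in the same order. The changed genes were drawn from those above 1 CPM in DMSO and all others were left unchanged. Real changes were far more widespread, so these shares need not hold for them. Replicate numbers did not pair the samples. The alternatives tried were other scalings, DESeq2 1.42.0, a test against 2-fold, other filters, a model of 8 libraries, a replicate block, thinned counts and leaving out each library. Some genes that meet the naming rule are not reported here.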

Additional observations from a re-analysis of the deposited data

Results flagged for a closer look

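In 24 of 428 groups of 4 libraries, 1 library lay far from the other 3 by Dixon's gap ratio, near the 1 in 20 groups that chance gives. In DMSO replicate 1 the values set apart were ANKRD1 at 22.8 scaled CPM, C3 at 449, MCHR1 at 1.63, MYC at 14.1, POR at 158, PSAP at 344, SP5 at 161 and TUBA4A at 1.16. In DMSO replicate 2 they were CYP1A1 at 81.0, RNF43 at 93.1, SLC2A1 at 181 and SLC7A11 at 35.8, and in DMSO replicate 3 CDKN1A at 46.2 and SLC2A2 at 173. In bortezomib replicate 2 they were LYZ at 73.3 and MAP1LC3B at 137, in bortezomib replicate 3 DDB2 at 9.08, TFEB at 2.96 and TNFSF10 at 0.634, and in bortezomib replicate 4 ACADM at 25.1, CDK6 at 93.4, NR1D2 at 27.7, ODC1 at 410 and RPL3 at 503. The groups of ANKRD1 and of MYC were the only ones of these whose comparison did not pass the test.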

How the results depend on the processing

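Scaling by library totals alone was the alternative that changed most. It gave 1490 calls higher (553 beyond 2-fold) and 6266 lower (3233 beyond 2-fold), since the median log2 fold change of all genes then moves to −0.495. Testing against a 2-fold change called 593 genes higher and 599 lower. Other scalings, DESeq2, both other filters, the model of 8 libraries and thinned counts kept the 4 counts within 1.5 times. Leaving out 1 library gave 3021 to 3290 genes higher and 3046 to 3390 lower, and 1186 to 1319 and 1495 to 1721 beyond 2-fold.

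On library totals alone the log2 fold changes of 16 named genes turned sign: AMBP −0.26, APOE −0.0167, BCL2L1 −0.48, CDT1 −0.0515, COX4I1 −0.40, EPCAM −0.16, FASN −0.48, HMGCS1 −0.34, ID1 −0.49, IER3 −0.49, MT2A −0.0678, NDUFA4 −0.44, NQO1 −0.45, OAZ1 −0.0102, SLC2A1 −0.0693 and TUBB −0.34. No gene called in the report turned sign under another alternative, and 203 of 210 named genes kept their call and direction under all alternatives but library totals, while 18 genes called in neither fit changed sign.

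A fit with the replicate number as a block called 3519 genes higher and 3315 lower (1300 and 1558 beyond 2-fold). Same-numbered DMSO and bortezomib libraries deviated together only weakly (correlations 0.0158 to 0.0538), so the number was not taken as a pairing. At these depths, genes under about 1 CPM rest on a few counts per library.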
